A study of Mus musculus with 27 samples.

Results

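The genes described here are 37 regulators of pre-mRNA splicing, the SR proteins, the heterogeneous nuclear ribonucleoproteins (hnRNPs) with the poly(C)-binding proteins, the polypyrimidine tract-binding (PTB) proteins and HuR. They were taken by symbol from the 55487 Ensembl genes of the deposited count table, and all 37 were found and passed the low-count filter of every comparison. They comprise 8 classical SR genes (Srsf1 to Srsf7 and Srsf9), 4 SR-like genes (Srsf10, Srsf11, Tra2a and Tra2b), 7 genes of the hnRNP A/B and D group, 4 of hnRNP C, L, M and R, 4 of hnRNP F/H, 3 of hnRNP U, 3 with KH domains (Hnrnpk, Pcbp1 and Pcbp2), the 3 PTB genes and Elavl1, which encodes HuR.

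SR proteins carry an arginine- and serine-rich domain and mostly promote the use of exons to which they bind, while many hnRNPs and PTB proteins silence exons by binding pre-mRNA in or beside them. The balance between both classes, together with tissue regulators such as the MBNL and CELF proteins, sets which exons a heart muscle cell includes, and many exons of contractile and membrane genes switch between fetal and adult forms after birth. Many of these regulators also control their own messages through exons or introns that expose the transcript to nonsense-mediated decay (NMD).

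RNA was sequenced from mouse ventricles in 27 libraries of 7 groups, to follow normal postnatal expression and the effect of the amount of MBNL1, an RNA-binding protein that controls splicing. The label KO (MBNL1 loss of function) is carried by 5 libraries taken 7 days after knockout, set against 4 controls, and by 4 taken at 14 days, set against 3 controls, all of postnatal day 60. The label Tg (MBNL1 gain of function) is carried by 4 libraries of postnatal day 7, set against 3 controls, and the 4 libraries of postnatal day 1 are controls without a manipulated partner. The sources used here do not give how or in which cells the knockout was induced, which part of the gene it removes, the promoter of the transgene, what the controls carry, the strain, the sex or how many animals were used. Nothing in the labels says which libraries are different mice, and the p-values therefore cover the spread from library to library, which may be technical. The tissue is labelled as ventricle, and all 8 cardiomyocyte markers examined were detected, with summed levels of 19861 CPM or more in every library.

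Total counts ran from 21929347 to 25675115 per library. A member had between 119 counts (Srsf4) and 10897 counts (Hnrnpa2b1) in a library, so no member was near the limit of 3 counts that a count of 0 allows, and such limits cover counting error only. Mbnl1 had 219, 102, 167, 115 and 168 counts-per-million (CPM) in the 7-day libraries labelled KO, against 153, 146, 149 and 147 CPM in their controls, so the total of the gene does not check the label at that time (log2 fold change 0.05 ± 0.20, SE, adjusted p = 0.86, edgeR). At 14 days it had 137, 135, 115 and 121 CPM in the libraries labelled KO, against 170, 159 and 151 CPM in controls. It had 2935 to 4080 CPM in Tg libraries, against 96.9 to 105 CPM in day 7 controls. Esr1, the estrogen receptor alpha gene, had 234, 1893, 650, 1653 and 195 CPM in the 7-day libraries labelled KO and 1651 to 1955 CPM in those of 14 days, against 0.487 to 1.5 CPM in the day 60 controls. Any other difference between the libraries labelled KO and their controls cannot be told apart from that in MBNL1. Mitochondrially encoded genes took 14.7% to 18.3% of counts in the 7-day libraries labelled KO and 17.4% to 21.6% in those of 14 days, against 26% to 29.6% in the day 60 controls, and 10.3% to 16.9% in the libraries of days 1 and 7. Levels below are CPM after TMM scaling, which sets the typical gene equal between libraries, and called members that turn or lose their call under scaling by total counts are named. In the 7-day KO group, libraries 1 and 5 resembled each other and differed most from the others. The day 1 libraries split into pairs, 1 with 2 and 3 with 4. Their chi-square per degree of freedom was 14.07 and 29.96 within pairs and 35.62 to 76.77 across them. Neither day 1 pair can be called the deviating one. Counts are also given without KO libraries 1 and 5 and without day 1 libraries 3 and 4. No fit left out day 1 libraries 1 and 2 together.

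Ptbp1 had the largest change of any member between days 7 and 60 and in the 7-day libraries labelled KO, and a 34-base exon shared by the PTB genes is shown because its skipping is annotated or known as a route to NMD. PTBP1 is known to repress this exon in its own message and in that of Ptbp2, which shifts the reading frame. In the GENCODE M21 annotation of GRCm38 the exon of Ptbp1 lies at chr10:79862014-79862047 on the plus strand, that of Ptbp2 at chr3:119724612-119724645 on the minus strand and that of Ptbp3 at chr4:59485339-59485372 on the minus strand. Sequences are written 5′ to 3′, and capitals mark bases that differ from Ptbp1.
Ptbp1: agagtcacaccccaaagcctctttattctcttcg
Ptbp2: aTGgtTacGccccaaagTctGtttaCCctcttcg
Ptbp3: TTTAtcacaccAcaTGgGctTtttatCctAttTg
The Ptbp2 exon matched Ptbp1 at 26 of 34 bases and the Ptbp3 exon at 22 of 34. The annotation held 2 NMD transcripts that skip the exon in Ptbp1, 2 in Ptbp2 and 0 in Ptbp3. The deposited table counts whole genes, so exon inclusion was not measured here.

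The promoters of Ptbp1 and Ptbp2 are shown because both genes fell between days 7 and 60 and both were called higher in libraries labelled KO at 7 and at 14 days. Ptbp3 was called in the same directions there, and its promoter was not analysed here. Each covers 250 bases before to 50 after the RefSeq start on GRCm38.p6, at chr10:79854182-79854481 on the plus strand for Ptbp1 and chr3:119783339-119783638 on the minus strand for Ptbp2, written in the direction of transcription. Capitals mark matches to 3 motifs, each searched on both strands. The GC box was searched as GGGCGG. The CCAAT box was searched by the letters of its name, and the YY1 motif as AAGATGGC.
Ptbp1: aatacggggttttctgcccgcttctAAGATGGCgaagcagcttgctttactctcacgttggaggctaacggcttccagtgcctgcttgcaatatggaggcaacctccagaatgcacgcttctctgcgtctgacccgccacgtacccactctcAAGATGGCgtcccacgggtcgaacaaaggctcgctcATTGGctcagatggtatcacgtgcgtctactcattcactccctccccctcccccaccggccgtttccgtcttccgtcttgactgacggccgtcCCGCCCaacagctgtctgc
Ptbp2: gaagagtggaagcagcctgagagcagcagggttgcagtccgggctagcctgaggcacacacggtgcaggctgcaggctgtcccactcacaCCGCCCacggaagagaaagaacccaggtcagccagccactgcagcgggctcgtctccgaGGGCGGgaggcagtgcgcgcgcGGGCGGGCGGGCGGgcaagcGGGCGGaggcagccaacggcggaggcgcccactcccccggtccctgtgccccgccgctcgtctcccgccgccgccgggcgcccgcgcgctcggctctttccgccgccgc
In these windows Ptbp1 held a GC box, a CCAAT box and the YY1 motif, and of the 3 motifs Ptbp2 held the GC box only. Promoters of 35 members were available, 48 in all, and a member was counted if any of its promoters held a motif. The shares over all promoters count each promoter singly, so members with several promoters had more chances of a match. A GC box was present in 29 of the 35, against 35.7% of 32851 promoters, and a CCAAT box in 20, against 37.4%. The YY1 motif was in 2, Ptbp1 and Hnrnpul1, against 2.75% of promoters, and the letters TATAAA were in 4, against 13.6%. These matches are descriptions of sequence and were not tested as binding sites.

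The members lie on 18 chromosomes. Hnrnpd and Hnrnpdl are neighbours on chromosome 5, 54639 bases apart, and Hnrnpa0 and Hnrnpk lie 262586 bases apart on chromosome 13. An NMD transcript was annotated for 23 of the 37 members, against 20.9% of 21897 protein-coding genes, and a retained-intron transcript for 28, against 41.6%. Exonic bases were shared with another gene in 19 members, on the same strand in 4 and on the other strand in 16, among them Ptbp1, Ptbp3, Hnrnph3, Hnrnpd, Hnrnpl, Hnrnpa3, Pcbp1 and Elavl1. The strand setting of the counting was not given in the sources used here, so reads of such partners could be included in these members' counts. Per kilobase of merged exons, the highest level in day 60 controls was that of Pcbp1, 117 ± 2.36 CPM per kb (SD, n = 7). Pcbp2 followed with 45.6 ± 2.72 CPM per kb and Hnrnpab with 39.6 ± 1.54 CPM per kb, while the lowest were Ptbp2 with 2.08 ± 0.172 CPM per kb and Hnrnpr with 1.52 ± 0.107 CPM per kb. Merged exons join all annotated exons of a gene, 1830 bases for Pcbp1 and 22199 for Hnrnpr, and need not match the transcripts present. Not divided by length, Hnrnpr had 31.3 to 37.4 CPM in day 60 controls, above Srsf4 with 7.04 to 8.58 CPM. Hnrnpa0 (34.7 ± 2.69 CPM per kb) and Hnrnpa1 (34.3 ± 2.21 CPM per kb) did not differ beyond their spread.

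In controls most members were lower at day 60 than at day 7. All day 60 controls carry a label of 7 or 14 days after knockout, and the controls of days 1 and 7 carry none. Age and whatever goes with that label cannot be told apart in comparisons with day 60. Of the 37 members, 31 fell and 0 rose between days 7 and 60 at an adjusted p under 0.05 (edgeR quasi-likelihood test, Benjamini-Hochberg adjustment over all genes). Of all 16388 genes tested, 69.3% changed, 36.0% lower and 33.3% higher. The median log2 fold change of the members was -0.50, against -0.05 for all genes. By DESeq2 and limma-voom 0 members rose as well, 31 had an unadjusted p under 0.05 in the edgeR test, and those 31 are the members that fell. Between days 1 and 60, 32 members fell and 0 rose, where 73.7% of genes changed, 38.6% lower. Between days 1 and 7, 5 fell and 1 rose, where 23.5% of genes changed. The 3 age comparisons share control libraries and are therefore not independent of each other. Under total count scaling the median of all genes moved to -0.65 and that of the members to -1.10 between days 7 and 60. There 37 members and 10707 of the 16388 genes were called lower. Without mitochondrially encoded genes in the total the medians were -0.42 and -0.87, with 36 members and 8950 genes lower. Of all genes 79.7% and 74.5% were called under these scalings. Of all genes called in that comparison 48.1% were higher with TMM scaling, 18.0% with total counts and 26.7% without the mitochondrially encoded ones. Between days 1 and 60 these shares were 47.6%, 19.3% and 28.8%, and between days 1 and 7 they were 52.5%, 41.0% and 52.9%.

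**Figure D1:**
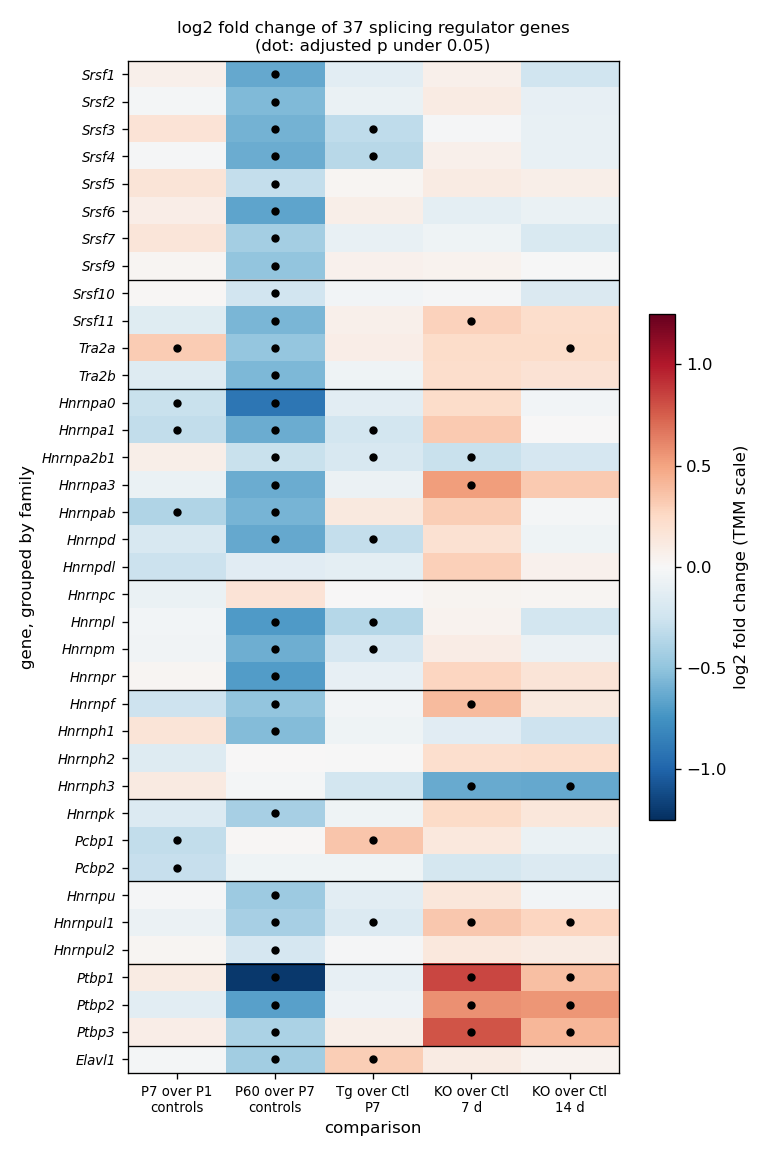
Log2 fold change (TMM scale, colour) of the 37 members (y axis, grouped by family and separated by lines) in 5 comparisons (x axis), with dots at an adjusted p under 0.05. The column of day 60 over day 7 holds 31 dots, all on lower values, and the 3 PTB genes carry dots on higher values in both KO columns.

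Among the PTB genes, Ptbp1, the most widely expressed of the family and a repressor of exons used in differentiated muscle and nerve, fell the most between days 7 and 60. It had 151, 149, 95.7 and 123 CPM at day 1, 138, 137 and 141 CPM at day 7, and a lowest value of 54.8, a median of 60.5 and a highest of 65.4 CPM in the 7 controls of day 60. All day 60 controls lay below all libraries of days 1 and 7, which overlapped each other. The log2 fold change of day 60 over day 7 was -1.20 ± 0.10 (SE, adjusted p = 1.03e-07). Ptbp2, known chiefly from neurons, had 40.5, 32.8, 27.1 and 33.5 CPM at day 1, 31.7, 32 and 27.5 CPM at day 7 and between 16.9 and 21.3 CPM at day 60, with a median of 19.4. Its day 60 values were also below every younger library (-0.68 ± 0.10). Ptbp3, first studied in blood cells, changed less, by -0.39 ± 0.07. It had 49.3, 48.0, 44.6 and 45.7 CPM at day 1, 52.9, 48.8 and 47.4 CPM at day 7 and 34.3 to 46.9 CPM at day 60 with a median of 36.3, so that 1 day 60 control reached the day 1 range. Between days 1 and 7 none of the 3 was called, with log2 fold changes of 0.10 ± 0.12 for Ptbp1, -0.13 ± 0.11 for Ptbp2 and 0.09 ± 0.08 for Ptbp3.

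**Figure D2:**
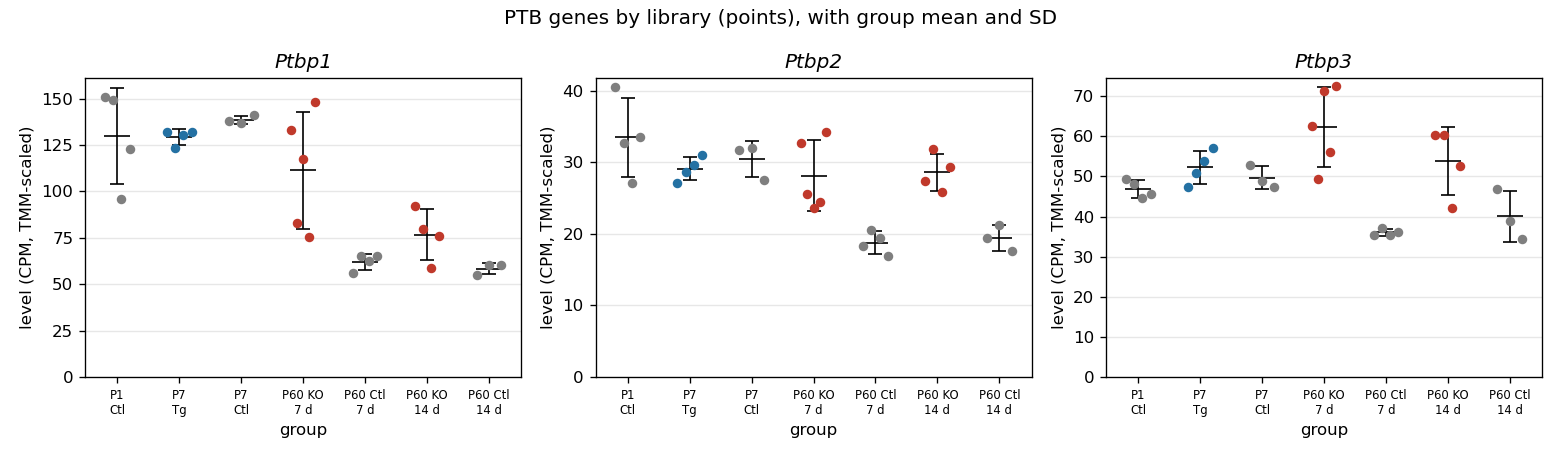
TMM-scaled CPM of Ptbp1, Ptbp2 and Ptbp3 (y axes, from 0) in each library (points) by group (x axis), with group mean and SD. Ptbp1 lies between 54.8 and 65.4 CPM in the day 60 controls and between 75.5 and 148 CPM in the 7-day libraries labelled KO.

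All 8 classical SR genes fell between days 7 and 60, with log2 fold changes from -0.66 (Srsf6) to -0.30 (Srsf5). Srsf1, a prototype of the family that acts in both constitutive and alternative splicing, changed by -0.64 ± 0.08, and Srsf3, its smallest member, by -0.59 ± 0.10. Srsf2, which also acts in transcription elongation, changed by -0.55 ± 0.07. None of the 8 was called between days 1 and 7, where their values ran from -0.02 to 0.17. The 4 SR-like genes fell as well, from -0.57 for Srsf11 to -0.24 for Srsf10. Tra2a, a homolog of the fly Transformer-2 protein, was the sole member that rose between days 1 and 7 (0.32 ± 0.10), with 36.8, 38.4, 31.8 and 37 CPM at day 1 and 41.7, 48.1 and 45.0 CPM at day 7. That call was lost on leaving out each of 6 of the 7 libraries in turn, every day 7 library and day 1 libraries 1, 3 and 4, and under total count scaling (0.27).

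In the hnRNP A/B and D group, 6 of 7 genes fell between days 7 and 60. Hnrnpa0, which binds AU-rich elements, had 203, 234, 194 and 213 CPM at day 1, 172, 169 and 181 CPM at day 7 and from 85.8 to 104 CPM, with a median of 91.4, at day 60. The 3 ages did not overlap, and the log2 fold change was -0.28 ± 0.08 for day 7 over day 1 and -0.90 ± 0.07 for day 60 over day 7. Hnrnpa1, which competes with SR proteins for splice site choice, had 206, 238, 185 and 195 CPM at day 1, 156, 177 and 167 CPM at day 7 and from 97.0 to 118 CPM, with a median of 109, at day 60. Hnrnpab, which is both an RNA- and a DNA-binding factor, had 224, 245, 180 and 205 CPM at day 1, 153, 168 and 169 CPM at day 7 and from 105 to 116 CPM, with a median of 110, at day 60. These 2 genes likewise did not overlap between ages, and over day 1 their day 60 levels differed by -0.92 ± 0.06 (Hnrnpa1) and -0.96 ± 0.07 (Hnrnpab). Hnrnpa2b1, an exon silencer that also sorts RNA in the cytoplasm, changed by -0.28 ± 0.11 between days 7 and 60 (adjusted p = 0.039). Leaving out 1 library ended that call in 8 of 10 fits, all but those without day 7 library 1 or 7-day control library 4, with values of -0.29 to -0.26, and so did DESeq2. Hnrnpdl was not called there, at -0.15 ± 0.09 (-0.75 and called under total count scaling), but fell between days 1 and 60 (-0.41 ± 0.08).

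Hnrnpl, a binder of CA repeats that can silence or enhance exons, was lower by -0.70 ± 0.08 at day 60 than at day 7. It had 320, 328, 291 and 337 CPM at day 1, 326, 307 and 303 CPM at day 7 and from 168 to 229 CPM, with a median of 200, at day 60. The 2 younger ages overlapped, and day 60 lay below both. Hnrnpr, which binds messages carried along axons, fell by as much (-0.70 ± 0.09), and Hnrnpm, a splicing regulator studied in epithelial cells, by 0.61 on the log2 scale. Hnrnpc, which binds uridine tracts and guards against the use of Alu-derived exons in human cells, was not called in the main edgeR fit of any comparison. Without day 1 libraries 3 and 4 it was called lower at day 7 than at day 1 (-0.25). Between days 7 and 60 its value of 0.17 ± 0.10 turned to -0.44 under total count scaling and was then called. Its TMM-scaled levels in the day 60 controls, 101 to 133 CPM, overlapped those of day 7, 95.5 to 104 CPM. All 3 genes of the hnRNP U group fell, and so did Elavl1, whose product HuR stabilises AU-rich messages (-0.44 ± 0.06). Of the hnRNP F/H genes, which bind runs of guanines, Hnrnpf (-0.49 ± 0.08) and Hnrnph1 (-0.54 ± 0.11) fell while Hnrnph2 (0.00 ± 0.07) and Hnrnph3 (-0.02 ± 0.12) were not called, although under total count scaling they were called lower at -0.60 and -0.63. Of the KH-domain genes, Hnrnpk fell (-0.41 ± 0.06), while Pcbp1 (0.02 ± 0.06) and Pcbp2 (-0.05 ± 0.07) were not called between days 7 and 60 with TMM scaling, but were called lower under total count scaling, at -0.58 for Pcbp1 and -0.65 for Pcbp2.

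With TMM scaling, Pcbp1 and Pcbp2 were called lower in the first week. Under total count scaling this held (-0.37 for Pcbp1 and -0.34 for Pcbp2), beside the later falls given above. Pcbp1, which also delivers iron to ferritin, had 242, 260, 277 and 268 CPM at day 1, 205, 206 and 222 CPM at day 7 and 210 to 220 CPM, with a median of 214, at day 60. All 4 day 1 libraries lay above all later ones, and the log2 fold change of day 7 over day 1 was -0.31 ± 0.07 (adjusted p = 0.0036). Pcbp2 changed by -0.28 ± 0.08 over the same interval. The first-week counts rest on few libraries. Leaving out any of the 3 day 7 libraries gave 3 members lower, where 15% to 15.6% of all genes were called. Leaving out day 1 library 1 gave 5 (19.5%), library 2 gave 4 (19.1%) and library 3 gave 10 (27.7%). Without day 1 libraries 3 and 4 the counts were 12 lower and 0 higher, where 34.7% of all genes were called. The other pair, libraries 1 and 2, was not left out together, so this count shows 1 side of the split only. The higher call of 1 member became 0 without any of the day 7 libraries and without day 1 library 1, 3 or 4. Lost calls in these fits were those of Hnrnpa0, Hnrnpa1, Pcbp2 and Tra2a. Between days 7 and 60 the number lower was 30 or 31 whichever library was left out, and between days 1 and 60 it was 31 to 34, where the call of Hnrnph2 (-0.16 ± 0.06) was the sole call lost.

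The age comparison went with changes in markers of other states and cell types. Summed levels of 7 cycling-cell genes were 181 to 571 CPM at day 1, 283 to 303 CPM at day 7 and 11.9 to 30.8 CPM in day 60 controls, and 7 of 7 were called lower at day 60 than at day 7. The 7 fibroblast markers summed to 2691 to 4295 CPM at day 1, 5931 to 6983 CPM at day 7 and 1236 to 1490 CPM at day 60, with 5 of 7 lower and 1 higher. The 8 cardiomyocyte markers summed to 37261 to 45046 CPM at day 1, 46061 to 46794 CPM at day 7 and 74384 to 81270 CPM at day 60, with 8 of 8 higher. The 7 macrophage markers summed to 52.4 to 79.3 CPM at day 1, 78.3 to 104 CPM at day 7 and 308 to 470 CPM at day 60, with 7 of 7 higher than at day 7. The 7 endothelial markers summed to 1007 to 1153 CPM at day 1, 1368 to 1393 CPM at day 7 and 832 to 962 CPM at day 60, with 5 of 7 lower and 1 higher. The part of these shifts in the members' change was not tested, and in whole ventricle fewer cells of a type and less RNA per cell cannot be told apart.

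**Figure D3:**
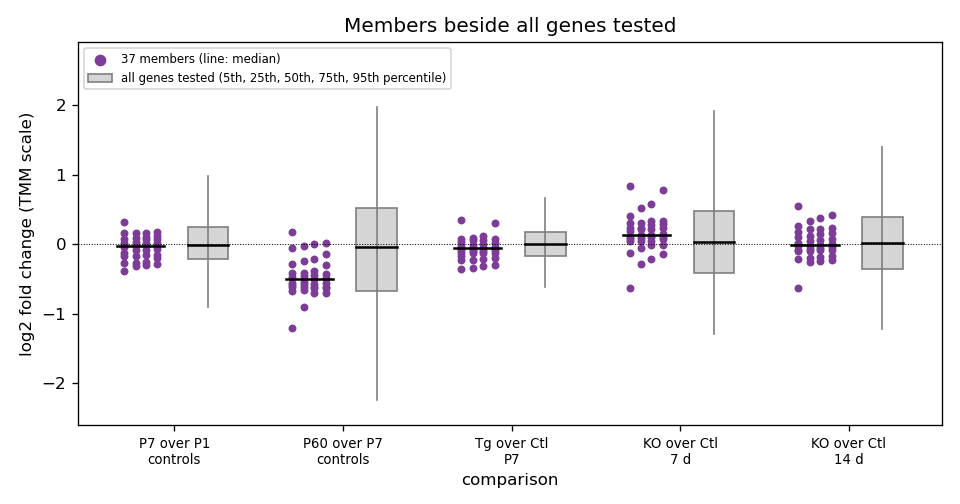
Log2 fold changes (y axis, TMM scale) of the 37 members (points, line at their median) beside all genes tested (box with 25th, 50th and 75th percentiles, lines to the 5th and 95th) in 5 comparisons (x axis). The members' median lies at -0.50 between days 7 and 60 and at 0.13 in KO libraries at 7 days.

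In the wider splicing machinery genes changed in both directions with age. The counts were read beside the 69.3% of all genes called between days 7 and 60, 36.0% lower and 33.3% higher. Of 29 other SR-related and hnRNP-related genes, 19 fell and 1 rose between days 7 and 60 (27 tested). The largest falls were those of Elavl2, a neuronal relative of HuR (-4.53 ± 0.54), and Pcbp3 (-1.29 ± 0.13), while Raver2, a binding partner of PTB proteins, rose (0.43 ± 0.17). Of 40 core spliceosome genes, 13 fell and 8 rose. Snrpd1, an Sm protein (-0.89 ± 0.17), and Snrnp70, of the U1 particle (-0.72 ± 0.10), fell the most, while Prpf19 (0.67 ± 0.07) and Snrpd3 (0.44 ± 0.12) rose the most. Of 11 genes for SR protein kinases and import, 4 fell and 2 rose, with Clk2 (-0.63 ± 0.08) and Clk3 (-0.43 ± 0.07), kinases of SR proteins, at the low end and the SR importer Tnpo3 (0.21 ± 0.07) at the high end. Of 10 NMD genes, 4 fell, led by Smg9 (-0.64 ± 0.08), and 2 rose, led by Upf2 (0.40 ± 0.10).

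At 7 days after knockout, the 3 PTB genes had the largest rises of the 37 members in libraries labelled KO. Of the 37 members, 7 were called higher and 2 lower, where 50.7% of all 15167 genes were called, 26.4% higher and 24.3% lower. The members' median log2 fold change was 0.13, against 0.03 for all genes. Ptbp1 had 133, 82.9, 118, 75.5 and 148 CPM in libraries labelled KO, against 56.0, 65.0, 62.4 and 65.4 CPM in controls (0.83 ± 0.19, adjusted p = 0.0046). Ptbp2 had 32.7, 25.5, 23.6, 24.5 and 34.2 CPM in libraries labelled KO, against 18.2, 20.6, 19.4 and 16.9 CPM in controls (0.57 ± 0.13, adjusted p = 0.0049). Ptbp3 had 62.6, 49.3, 71.3, 56.1 and 72.5 CPM in libraries labelled KO, against 35.3, 37.2, 35.3 and 36.3 CPM in controls (0.78 ± 0.12, adjusted p = 0.00037). For each of the 3 genes every library labelled KO lay above every control, and no left-out library ended the call. Libraries 1 and 5, with the lowest Esr1, and library 3 had the highest Ptbp1 of the 5, while libraries 2 and 4 were nearest to the controls. Without libraries 1 and 5 the log2 fold changes were 0.57 for Ptbp1, 0.39 for Ptbp2 and 0.71 for Ptbp3, all still called.

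Hnrnph3, the smallest of the hnRNP F/H family, went the other way. It had 13.7, 12.9, 21.5, 15.3 and 13.5 CPM in libraries labelled KO, against 22.5, 22.4, 23.8 and 25.7 CPM in controls (-0.63 ± 0.15, adjusted p = 0.0054). The groups did not overlap, although library 3 labelled KO came close to the lowest control. Under total count scaling its value was -0.20 and not called (adjusted p = 0.27), and without the mitochondrially encoded genes in the total it was -0.41 and called. Hnrnpa2b1 had 208, 191, 218, 197 and 205 CPM in libraries labelled KO, against 231, 241, 244 and 269 CPM in controls. The groups did not overlap and it was called lower (-0.28 ± 0.09), but the value turned to 0.14 under total count scaling, and leaving out control library 3 or 4 ended the call (-0.27 and -0.22). The other called members were Hnrnpa3 (0.52 ± 0.19), Hnrnpf (0.40 ± 0.13), Hnrnpul1 (0.34 ± 0.12) and Srsf11 (0.28 ± 0.09), all higher. Hnrnpa3 had 134, 80.0, 118, 81.3 and 141 CPM in libraries labelled KO, against 63.6, 76.0, 78.9 and 88.4 CPM in controls, and these overlapped. None of the 8 classical SR genes was called with TMM scaling, with log2 fold changes from -0.13 (Srsf6) to 0.10 (Srsf2 and Srsf5). Under total count scaling all 8 were called higher, from 0.30 (Srsf6) to 0.53 (Srsf5), where 63.6% of all genes were called. The negative values of Srsf3, Srsf6 and Srsf7 turned there.

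The number of calls at 7 days rested on single libraries. It was 11 higher and 3 lower without KO library 2, where 51% of all genes were called. It was 3 higher without control library 1 or 2, and 4 higher and 1 lower without control library 3. Without control library 4 the number lower was 1. In the fits without 1 control, 43% to 44.2% of all genes were called, against 50.7% with all libraries. The call of Hnrnpa3 was lost without KO library 1, 3 or 5 or control library 1, 2 or 3 (values of 0.43 to 0.55), and that of Hnrnpul1 without KO library 1 or 5 or any control (0.28 to 0.37). The call of Hnrnpf was lost without control library 1, 2 or 3 (0.37 to 0.42) and that of Srsf11 without control library 1 or 2 (0.24 and 0.27). Without KO libraries 1 and 5 together the number was 4 higher and 2 lower, where 52.7% of all genes were called. The median was then 0.04, and the calls of Hnrnpa3, Hnrnpf and Hnrnpul1 were lost. Those libraries had the highest levels of several members, among them Pcbp1 with 297 and 279 CPM against 199 to 205 CPM in KO libraries 2 to 4, and Hnrnpd with 67.5 and 61.7 CPM against 34.4 to 40.7 CPM. Scaling moved the whole comparison. Under total count scaling the median of all genes was 0.45 and that of the members 0.55, with 33 members higher and 0 lower. Of all 15167 genes 63.6% were called there, 8062 higher and 1590 lower. Of the 8 members with negative values on the TMM scale Hnrnph3 alone remained negative. With mitochondrially encoded genes left out of the total the medians were 0.24 and 0.35, with 24 members higher and 1 lower, where 55.5% of all genes were called. Of all called genes 52.0% were higher with TMM scaling, 83.5% with total counts and 70.7% without the mitochondrially encoded ones.

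Marker levels differed in the same libraries. The 7 cycling-cell genes summed to 66.3 to 137 CPM in 7-day libraries labelled KO, against 15.8 to 30.8 CPM in controls, and 7 of 7 were called higher. The 7 macrophage markers summed to 1011 to 1400 CPM against 373 to 432 CPM in controls (7 of 7 higher), and the 7 fibroblast markers to 4432 to 11458 CPM against 1236 to 1490 CPM (6 of 7 higher). The 8 cardiomyocyte markers summed to 19861 to 46936 CPM, against 75899 to 80542 CPM in controls (7 of 8 lower). KO libraries 1 and 5 had the lowest cardiomyocyte sums, 25796 and 19861 CPM, and the lowest fibroblast sums of the 5, 4432 and 4832 CPM. The part of these differences in the members' calls was not tested.

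At 14 days after knockout the PTB genes were again higher in libraries labelled KO and Hnrnph3 again lower. Of the 37 members, 5 were called higher and 1 lower, where 44.2% of all 14976 genes were called, 21.8% higher and 22.4% lower. The members' median was -0.01, against 0.01 for all genes. Ptbp2 had 27.4, 31.9, 25.8 and 29.3 CPM in libraries labelled KO, against 19.4, 21.3 and 17.6 CPM in controls (0.55 ± 0.11, adjusted p = 0.0023). Hnrnph3 had 15.9, 16.9, 17.9 and 16 CPM in libraries labelled KO, against 28.8, 26.6 and 22 CPM in controls (-0.64 ± 0.11, adjusted p = 0.0010). Neither gene's groups overlapped and no left-out library ended either call, though under total count scaling Hnrnph3 was -0.26 and not called. Ptbp3 had 60.3, 60.3, 42.2 and 52.6 CPM in libraries labelled KO, against 46.9, 39.0 and 34.3 CPM in controls (0.42 ± 0.14, adjusted p = 0.039). Ptbp1 had 92.1, 79.8, 58.6 and 76.0 CPM in libraries labelled KO, against 54.8, 60.1 and 60.5 CPM in controls (0.38 ± 0.14, adjusted p = 0.044). In both genes KO library 8 lay within the control range.

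The calls of Ptbp1 and Ptbp3 at 14 days depended on the libraries used. That of Ptbp1 was lost on leaving out any of 6 of the 7 libraries, all but KO library 8, with values of 0.30 to 0.41, as well as under limma-voom and in the fit of all 27 libraries. That of Ptbp3 was lost without KO library 6, 7 or 9 or control library 6 or 7, 5 of 7 such fits, with values of 0.32 to 0.43. Hnrnpul1, an hnRNP U relative that also acts in DNA repair, had 161, 157, 167 and 148 CPM in libraries labelled KO, against 138, 133 and 122 CPM in controls (0.27 ± 0.08). Tra2a had 35.6, 35.8, 36.7 and 35.6 CPM in libraries labelled KO, against 31.9, 30.2 and 29.2 CPM in controls (0.23 ± 0.08). Neither gene's groups overlapped, but the call of Hnrnpul1 was lost without any 1 of the 3 controls (0.22 to 0.30) and that of Tra2a without any library other than KO library 8 (0.20 to 0.26). The number higher was 2 without KO library 6, 7 or 9 or control library 5, where 36% to 40% of all genes were called. It was 1 without control library 6 or 7 (33.4% and 38.9%) and 9 without KO library 8 (49.2%). The number lower was 3 without KO library 8 and 2 without control library 6. Under total count scaling 27 members were higher and 0 lower, with a median of 0.37 for members and 0.39 for all genes. Of all 14976 genes 59.4% were called there, 7288 higher and 1612 lower. Of the 19 members with negative TMM-scaled values Hnrnph3 alone remained negative. With mitochondrially encoded genes left out of the total the counts were 13 higher and 1 lower (0.19 and 0.21), where 50% of all genes were called. Of all called genes 49.4% were higher with TMM scaling, 81.9% with total counts and 70.1% without the mitochondrially encoded ones. The macrophage markers summed to 623 to 888 CPM in these libraries labelled KO, against 308 to 470 CPM in controls, the fibroblast markers to 5020 to 6409 CPM against 1388 to 1469 CPM, and the cardiomyocyte markers to 41118 to 49001 CPM against 74384 to 81270 CPM. The 7 cycling-cell genes summed to 12.0 to 94.5 CPM against 11.9 to 24.2 CPM in controls, which overlapped, and 3 of 7 were called higher. KO library 8 had the lowest of these KO sums. The part of the marker differences in the members' calls was not tested.

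The 7-day and 14-day comparisons share no library. The same 5 members, the 3 PTB genes, Hnrnpul1 and Hnrnph3, were called in the same direction at both times, 13.5% of the 37, against 35.6% of the 14734 genes tested at both. Whether the response differed between the times was tested in the 16 libraries of day 60. Of the 37 members 0 were called, 0 had an unadjusted p under 0.05, and DESeq2 and limma-voom called 0 too. Among all 15951 genes edgeR called 0.00% and DESeq2 called 58 higher and 89 lower. The difference, 14 minus 7 days, was -0.43 ± 0.26 for Ptbp1, -0.34 ± 0.20 for Ptbp3 and 0.00 ± 0.18 for Ptbp2, and its median over members was -0.10.

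The wider lists were read beside the 50.7% of genes called at 7 days and the 44.2% called at 14 days. Of the 29 other SR-related and hnRNP-related genes 26 were tested at each time, of which 0 were called at 7 days, and at 14 days 3 were called lower, among them Raver2 (-0.54 ± 0.16) and Srrm2, a spliceosome scaffold (-0.37 ± 0.14). Among 40 core spliceosome genes 4 were higher and 3 lower at 7 days and 2 higher and 5 lower at 14 days. Prpf19, a ubiquitin ligase of the spliceosome, was lower at both times (-0.87 ± 0.09 at 7 days and -0.53 ± 0.08 at 14 days). Of the SR protein kinase and import genes, Dyrk1b was lower at 7 days (-0.58 ± 0.20) and Srpk3, a kinase of muscle, was higher at 14 days (0.35 ± 0.08). Of 10 NMD genes 1 was lower at 7 days, Upf3b (-0.35 ± 0.13), and 2 at 14 days, Smg1 (-0.47 ± 0.09) and Smg5 (-0.31 ± 0.10).

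In Tg hearts at postnatal day 7 none of the PTB, SR-like and hnRNP F/H genes passed the test, while members of the other families did. Of the 37 members, 8 were called lower and 2 higher, where 30.7% of all 15893 genes were called, 15.8% lower and 14.9% higher. The members' median was -0.06, against -0.00 for all genes. Ptbp1 had 132, 123, 130 and 132 CPM in Tg libraries, against 138, 137 and 141 CPM in controls. Ptbp2 had 27.1, 28.7, 29.6 and 31.0 CPM in Tg libraries, against 31.7, 32 and 27.5 CPM in controls, and Ptbp3 had 47.4, 50.9, 53.9 and 57.0 CPM in Tg libraries, against 52.9, 48.8 and 47.4 CPM in controls. The log2 fold changes were -0.10 ± 0.05 for Ptbp1, -0.06 ± 0.07 for Ptbp2 and 0.08 ± 0.06 for Ptbp3. Ptbp1 did not overlap between the groups, and the other two did.

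Pcbp1 and Elavl1 were the members called higher in Tg libraries. Pcbp1 had 283, 261, 266 and 263 CPM in Tg libraries, against 205, 206 and 222 CPM in controls (0.35 ± 0.05, adjusted p = 0.00027). Elavl1 had 73.3, 72.9, 76.8 and 74.8 CPM in Tg libraries, against 63.0, 57.8 and 59.6 CPM in controls (0.31 ± 0.05, adjusted p = 0.00031). All Tg libraries lay above all controls for both genes. Hnrnpl had the largest fall, with 244, 246, 238 and 249 CPM in Tg libraries, against 326, 307 and 303 CPM in controls (-0.35 ± 0.05, adjusted p = 0.00013). Srsf4, which takes part in cardiac splicing in mice, had 8.70, 9.08, 9.23 and 10.6 CPM in Tg libraries, against 11.3, 13.5 and 11 CPM in controls (-0.34 ± 0.10). Srsf3 had 86.9, 94.0, 96.3 and 102 CPM in Tg libraries, against 111, 122 and 121 CPM in controls (-0.31 ± 0.06). Hnrnpd, also called AUF1, a binder of AU-rich elements, had 52.9, 46.2, 50.5 and 51.0 CPM in Tg libraries, against 55.4, 66.2 and 63.8 CPM in controls (-0.30 ± 0.06). For these 4 genes every Tg library was below every control. Smaller falls were called for Hnrnpa1 (-0.23), Hnrnpm (-0.21), Hnrnpa2b1 (-0.20) and Hnrnpul1 (-0.17), and calls among these depended on single libraries. Those of Hnrnpm (-0.19 to -0.17) and Hnrnpul1 (-0.17 to -0.14) were lost without Tg library 2 or 3 or control library 2 or 3, that of Hnrnpa2b1 without control library 2 or 3 (-0.17 and -0.18) and that of Srsf4 without control library 2 (-0.25).

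**Figure D4:**
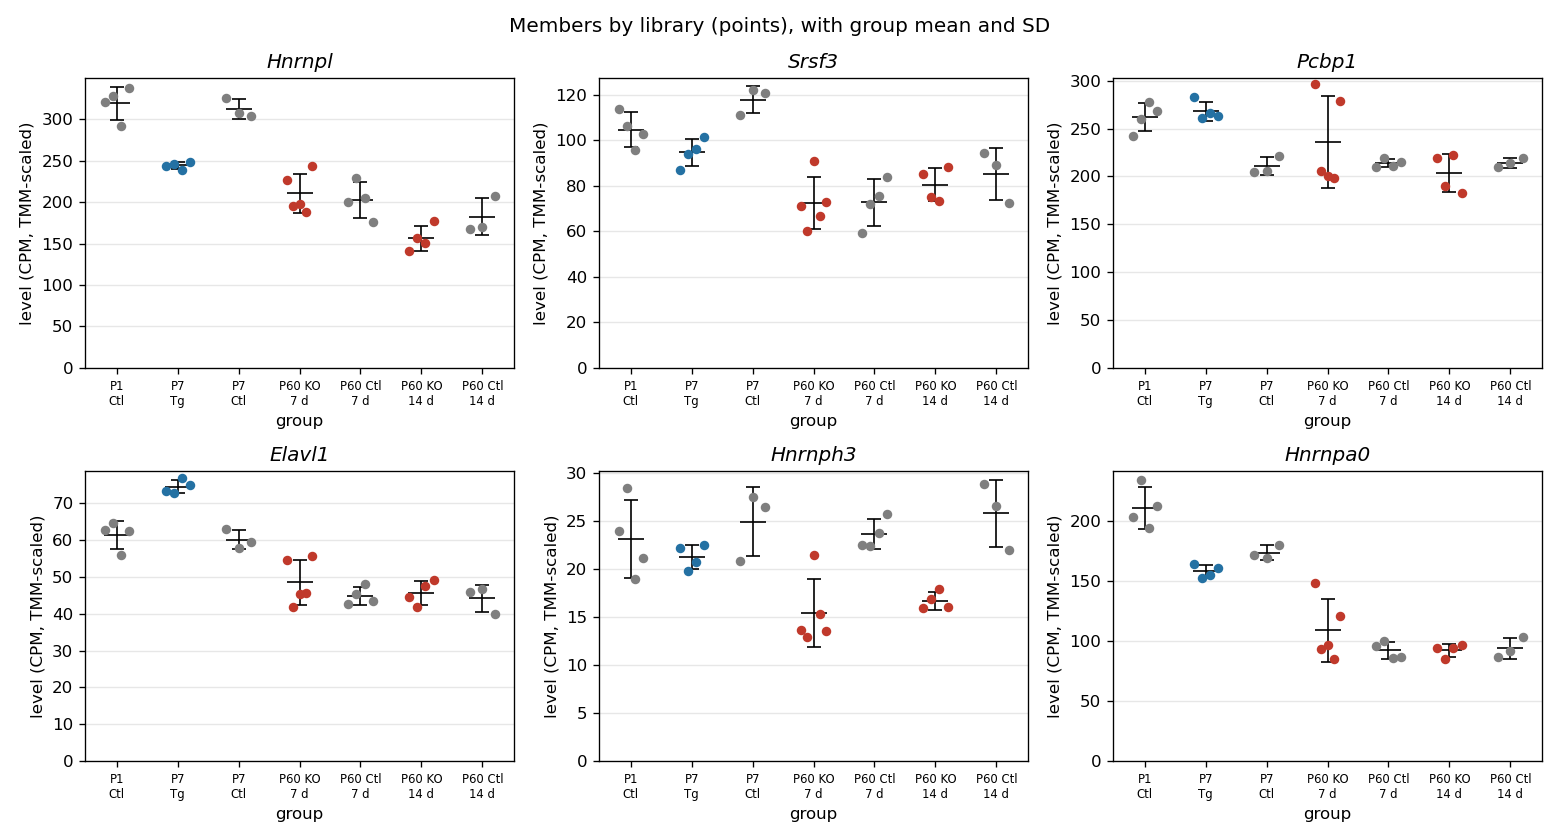
TMM-scaled CPM of Hnrnpl, Srsf3, Pcbp1, Elavl1, Hnrnph3 and Hnrnpa0 (y axes, from 0) in each library (points) by group (x axis), with group mean and SD. Hnrnpl lies at 238 to 249 CPM in Tg libraries, below the 303 to 326 CPM of day 7 controls, and Hnrnph3 at 12.9 to 21.5 CPM in 7-day libraries labelled KO, below the 22.4 to 25.7 CPM of their controls.

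The number lower in Tg libraries was 4 without control library 2 and 5 without control library 3, and it reached 12 without control library 1. Of all genes 23%, 25% and 25.1% were called in these fits. Fitted with all 27 libraries, which share an estimate of spread, 1 member was higher and 1 lower, where 5.64% of all genes were called. With DESeq2 2 were higher and 9 lower, where 27.3% of all genes were called. The wider lists were read beside the 15.8% of all genes called lower and the 14.9% called higher. Of the 29 other SR-related and hnRNP-related genes 27 were tested. Of these 6 were lower, among them Pcbp3 (-0.35 ± 0.10) and Ewsr1 (-0.30 ± 0.05), and 2 were higher, Luc7l2 (0.16 ± 0.05) and Rnps1 (0.16 ± 0.05). Of 40 core spliceosome genes Snrnp70 was the sole one lower (-0.32 ± 0.07), and 3 were higher, led by Sf3b5 (0.32 ± 0.05). The cycling-cell genes summed to 187 to 214 CPM in Tg libraries, against 283 to 303 CPM in day 7 controls (7 of 7 lower), and the macrophage markers to 129 to 173 CPM against 78.3 to 104 CPM (7 of 7 higher). The fibroblast markers summed to 7283 to 8580 CPM in Tg libraries, against 5931 to 6983 CPM in day 7 controls (5 of 7 higher). Their part in the members' calls was not tested.

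Summed over the 37 genes, the members took 0.577% ± 0.036 of all counts at day 1 (SD, n = 4). At day 7 they took 0.492% ± 0.005 in Tg libraries (n = 4), against 0.525% ± 0.020 in controls (n = 3). At day 60 they took 0.378% ± 0.039 in libraries labelled KO at 7 days (n = 5), against 0.258% ± 0.017 in controls (n = 4), and 0.325% ± 0.010 in libraries labelled KO at 14 days (n = 4), against 0.252% ± 0.014 in controls (n = 3). At both times all libraries labelled KO lay above all their controls. On the TMM scale the sums at 14 days were 3340 ± 183 CPM in libraries labelled KO and 3334 ± 25.9 CPM in controls, which overlapped. Those at 7 days were 3655 ± 411 CPM in libraries labelled KO and 3320 ± 133 CPM in controls. These overlapped too, with KO libraries 2 and 4 at 3222 and 3258 CPM, within the control range of 3133 to 3433 CPM. A few abundant genes weigh most in these sums, so they do not show the change of a typical member.

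**Figure D5:**
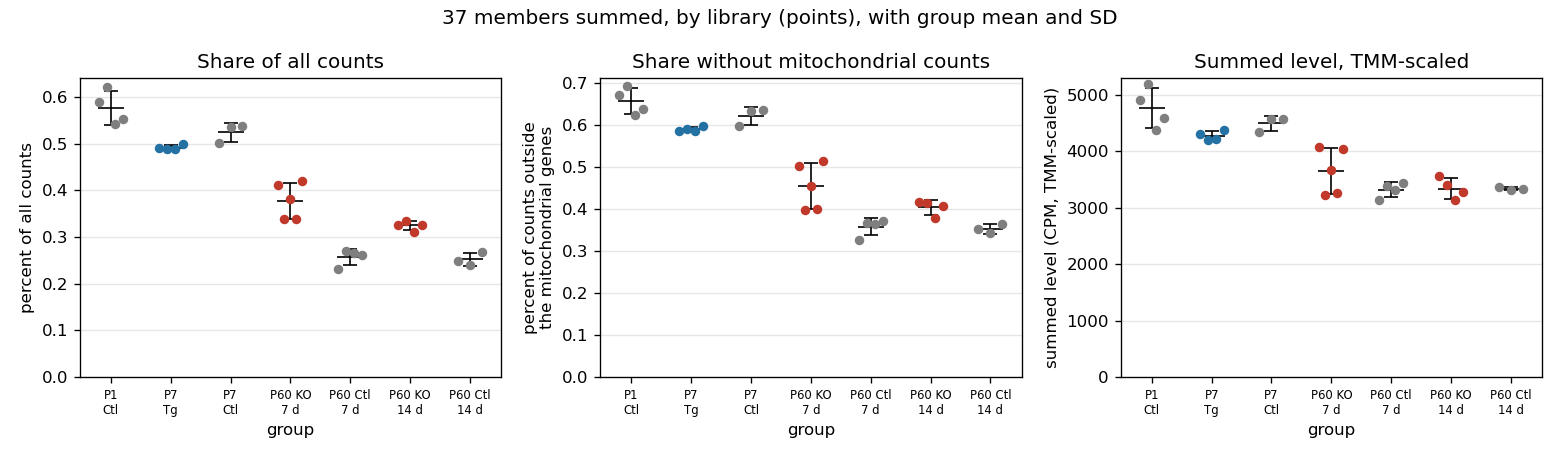
The 37 members summed in each library (points) by group (x axis), with group mean and SD, as percent of all counts (left), percent of counts outside the mitochondrially encoded genes (middle) and summed TMM-scaled CPM (right), all axes from 0. At 14 days the libraries labelled KO average 0.325% of counts, against 0.252% in controls, while the TMM-scaled sums average 3340 and 3334 CPM.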

How the data were processed

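Total RNA of mouse ventricles was extracted with TRIzol and a column kit and sequenced on DNBseq, per the labels' protocols. The authors deposited raw counts, as integer read numbers for every gene in every library. Per the submitters' processing notes, STAR, featureCounts, DESeq2 and Salmon and the builds GRCm38 and mm10 were involved, with no role or version stated. Symbols were looked up in GENCODE M21 (GRCm38), where 55141 of 55487 identifiers were found.

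The counts were tested with edgeR 4.0.16 in R 4.3.3 (filterByExpr, TMM scaling, quasi-likelihood F test). Benjamini-Hochberg adjustment ran over all genes tested, and genes were called at an adjusted p under 0.05. A standard error is the size of the log2 fold change divided by the root of its F statistic. Levels are counts-per-million values with TMM scaling over all 27 libraries. Each KO and the Tg comparison used its own 2 groups, the control ages were fitted together with both day 60 groups averaged, and the difference between KO times used all day 60 libraries. The procedure was tested on simulated data. Within groups, chi-square per degree of freedom was 6.34 to 147 over 40 pairs of libraries, so each counted as 1 sample.

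The 37 members and the pathway and marker lists were chosen with earlier results of these data known. All members may be named, with values per library for Mbnl1, the PTB genes and up to 4 called members with the largest rise and 4 with the largest fall in a comparison, and of each pathway list up to 2 called genes in each direction. Further genes with values per library, and Esr1, were chosen after their values were seen. Alternatives were DESeq2 1.42.0, voom of limma 3.58.1, other scalings, no filter, a fit of all 27 libraries, replicate number as a block and leaving out libraries.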

Additional observations from a re-analysis of the deposited data

Results flagged for a closer look

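In 7 of 185 sets of 1 member in 1 group of 4 or 5 libraries, a single library stood apart from the others by Dixon's test at the 95% level, where chance gives about 1 in 20, or 9.25. In libraries labelled KO, Hnrnph3 had 21.5 CPM in 7-day library 3, against 12.9 to 15.3 CPM in the other 4. Also in libraries labelled KO, at 14 days, Tra2a had 36.7 CPM in library 8, against 35.6 to 35.8 CPM in the others, and Hnrnpm had 59.8 CPM in library 9, against 64.2 to 64.4 CPM. In the 7-day controls, Srsf1 had 67.3 CPM in library 1, against 85.7 to 89.0 CPM, and Hnrnpul2 had 61.0 CPM in library 4, against 65.8 to 66.6 CPM. At day 1, Srsf11 had 97.1 CPM in library 4, against 115 to 116 CPM, and Hnrnpul2 had 80.5 CPM in library 2, against 69.6 to 71.2 CPM.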

How the results depend on the processing

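The PTB calls at 7 days, those of Ptbp2 and Hnrnph3 at 14 days and 30 or more of the 31 lower calls between days 7 and 60 held with DESeq2, limma-voom and each library left out. With total count scaling, the KO counts were 33 higher and 0 lower at 7 days (median 0.55, 63.6% of all genes called). At 14 days they were 27 and 0 (median 0.37, 59.4%). Without mitochondrially encoded genes in the total they were 24 and 1 (0.35, 55.5%) and 13 and 1 (0.19, 50%). The 14-day median thus turned from -0.01, and Hnrnpa2b1 at 7 days turned to 0.14. Age medians were -1.10 and -0.87 for days 60 over 7, -1.15 and -0.85 for days 60 over 1, under these scalings in the same order. With total counts the first-week median was -0.084 with 0 higher, where 24% of all genes were called. The Tg median was then -0.085 and the median difference between KO times -0.17. Without a count filter, 1 member was lower at 7 days (24.5% of all genes called). DESeq2 gave 2 lower at 14 days (43.9%). With all 27 libraries in a single fit, 14 were higher at 7 days, where 54.5% of all genes were called, and 2 lower at 14 days (39.3%). That fit gave 1 higher and 1 lower in Tg (5.64%) and 1 lower in the first week (16.7%). Without KO libraries 1 and 5, 4 were higher at 7 days (52.7% of all genes called). Without day 1 libraries 3 and 4, the first week gave 12 lower and 0 higher (median -0.13, 34.7% of all genes called). The median of day 60 over day 1 was then -0.59. The causes were not tested.

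Replicate numbers did not pair the libraries, since correlations of same-numbered libraries ran from -0.31 to 0.12. The fits with replicate number as a block kept only libraries whose number occurred in both groups compared. They were 8 at 7 days, 4 at 14 days, 6 in the first week, 6 for Tg and 12 for the KO time difference. The effect of the block cannot be told apart from that of the libraries left out. These fits gave 3 members higher and 1 lower at 7 days, 2 lower at 14 days and 0 and 0 in the first week. Of all genes 44.2%, 41.5% and 10.3% were called there. The Tg median was -0.081 and the median difference between KO times turned to 0.0054.

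Leaving out each library gave 3 to 11 higher, 1 to 3 lower and medians of 0.10 to 0.19 at 7 days. At 14 days it gave 1 to 9, 1 to 3 and -0.02 to 0.02. In those fits 43% to 51% of all genes were called at 7 days and 33.4% to 49.2% at 14 days. It gave 0 and 0 calls and medians of -0.14 to -0.06 for the difference between times. For Tg it gave 2 higher, 4 to 12 lower and -0.10 to -0.051, and in the first week 0 to 1, 3 to 10 and -0.074 to 0.0086. All genes called were 23% to 28.6% and 15% to 27.7% there. Days 60 over 7 gave 30 to 31 lower and -0.55 to -0.48 (62.4% to 68.4% of all genes called). Days 60 over 1 gave 31 to 34 lower and -0.55 to -0.45 (70.4% to 74.2%), with 0 higher in both.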
